A study of Mus musculus with 12 samples.

Results

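The genes described here serve the antioxidant defence that the transcription factor NRF2 is known to drive: glutathione synthesis, thioredoxin and peroxide removal, NADPH supply, detoxification, and the regulators of NRF2 itself. They are 39 named genes, and all 39 are present among the 13232 genes of the deposited table. Each was matched by its symbol. The list was chosen on knowledge of the pathway by someone who also had earlier results of these data in view, including the difference between diets in the same 6 libraries. That difference is therefore given below as a description of each gene, with no test of the members.

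RNA was measured in bone marrow-derived macrophages, cells that grow out of marrow in culture with the growth factor M-CSF. The marrow donors were wild-type C57B6/J mice, fed either a high-fat diet (HFD) or the normal diet (ND). Cells of both diets received 20 ng/ml of M-CSF, were moved to serum-free medium on day 4 and spent 1 h at 1% oxygen on day 7. There were 3 libraries per diet, and because every one of them is from hypoxic cells, nothing is said here about the response to low oxygen. The labels used here give neither the age of the mice, nor the length of feeding, nor whether the 3 libraries of a diet came from separate mice.

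NRF2, encoded by *Nfe2l2*, is held in the cytoplasm by KEAP1, which hands it to a ubiquitin ligase for destruction. Oxidants and electrophiles modify cysteines of KEAP1, and NRF2 then escapes, enters the nucleus, pairs with a small MAF protein and binds antioxidant response elements, sites that BACH1 can occupy as a repressor. NRF2 is thus controlled largely through the stability of its protein, and the RNA of its targets is often read as a measure of its activity. In macrophages the programme accompanies phagocytosis, haem breakdown and inflammatory activation.

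Every value is a normalized read count, that is, an estimated count of reads per gene divided by a scaling factor of its library. Estimated depth was 19046400 to 22805200 reads in ND and 23017100 to 24491500 in HFD, so all 3 HFD libraries were deeper before scaling. ND replicate 3, the shallowest, stood apart from the other ND libraries: on the first principal component of 10794 genes it lay at 3.43, beside HFD replicate 1 (1.33), while ND replicates 1 and 2 lay at -14.0 and -13.5. Counts by role and the members it brings into overlap are given with and without it. The macrophage label held, since all 8 macrophage markers examined were present and their summed level was 361574 to 415120 in ND and 359787 to 419514 in HFD. No marker of adipocytes (4 examined), dendritic cells (6), the erythroid lineage (9), T cells (6) or B cells (6) was in the table. Of 11 neutrophil markers 7 were listed, with *Mpo*, *Elane*, *Camp* and *Retnlg* missing, and they summed to 1776 to 2592 in ND and 2367 to 3750 in HFD. Of 6 stromal markers 3 were listed, at a summed 177 to 549 in ND and 51.8 to 337 in HFD, and of 5 mast cell markers only *Kit*, at 117 to 226 and 72.4 to 104. The part of the neutrophil, stromal and mast cell RNA in the differences below was not tested, and in bulk RNA a change in the share of a cell type and a change per cell cannot be told apart.

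Most enzymes and transporters of the pathway had a higher mean in HFD, while the regulators were divided. Of the 39 members, 35 had a higher mean in HFD, against 48.9% of all genes in the table. In 14 members the lowest HFD library still exceeded the highest ND library, as it did in 7.44% of all genes. In 1 member, *Cbr1*, the diets were separate the other way (7.07% of all genes). The median log2 difference between diets was 0.24 over the members and -0.0034 over all genes. With all 6 libraries none of the 14 was a regulator.

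Across the whole table, limma with Benjamini-Hochberg adjustment called 0 of 13232 genes at an adjusted p of 0.05 (0%), with 1401 at an unadjusted p under 0.05, so no member is called. With ND replicate 3 left out limma called 233 genes, with HFD replicate 1 left out 2, with ND replicate 2 left out 1, and with a weight for each library 1133. The count of members that lay wholly above ND was 26 without ND replicate 3, when 17.7% of all genes did so (24 of the 33 enzymes and transporters and 2 of the 6 regulators), and 23 without HFD replicate 1, when 15.5% did. Leaving out a library makes non-overlap easier for any gene. The members' median difference was 0.28 without ND replicate 3 and 0.36 with library weights.

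**Figure D1:**
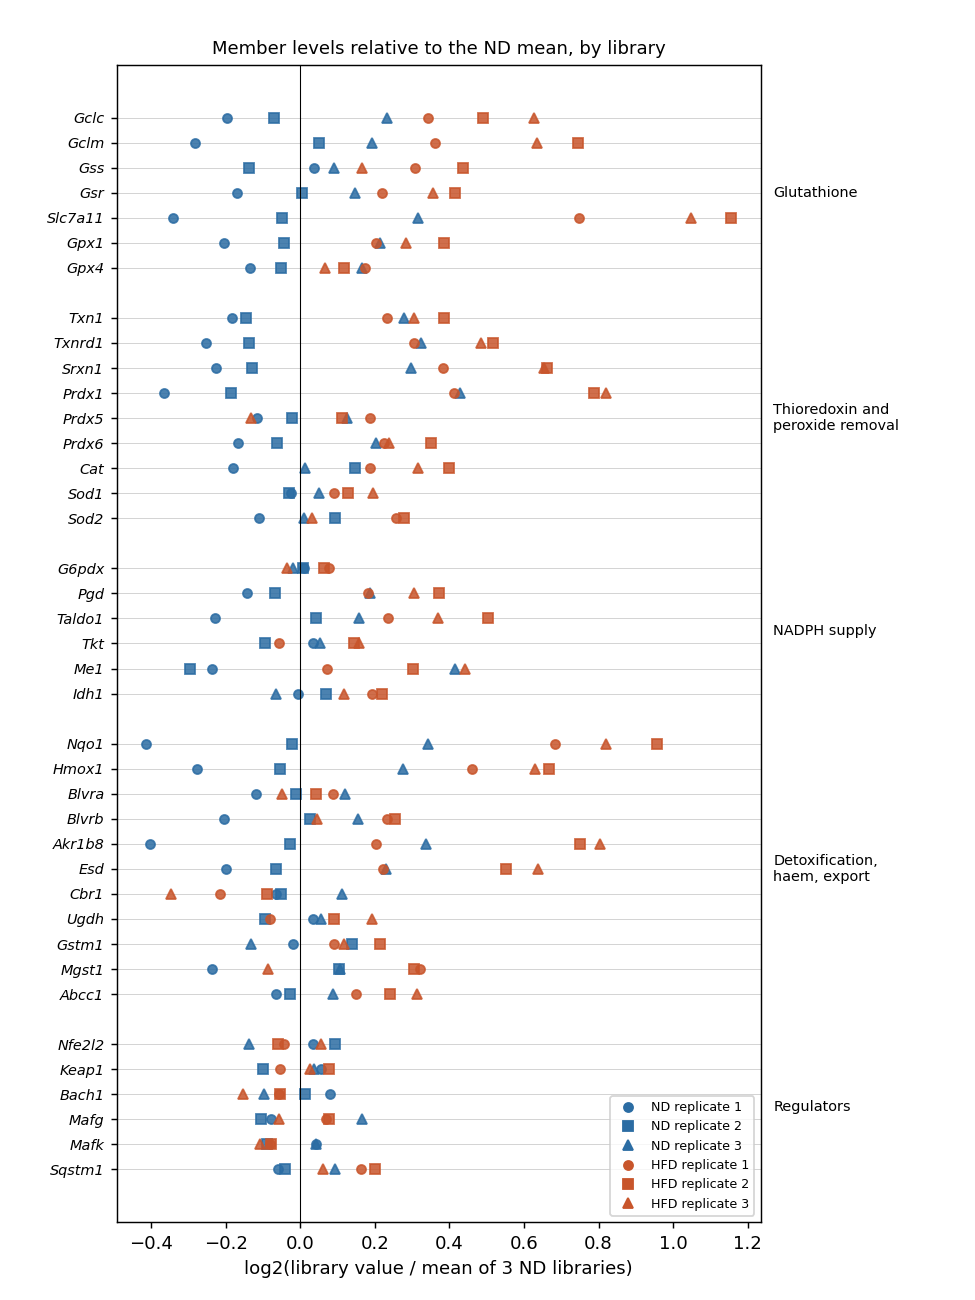
Each row is a member and each point a library, placed at the log2 ratio of its normalized count to the mean of the 3 ND libraries; blue is ND and orange HFD, and the marker shape is the replicate. In most rows above the regulators the orange points lie to the right, with the triangle of ND replicate 3 nearest to them, and *Slc7a11* and *Nqo1* reach farthest.

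**Figure D2:**
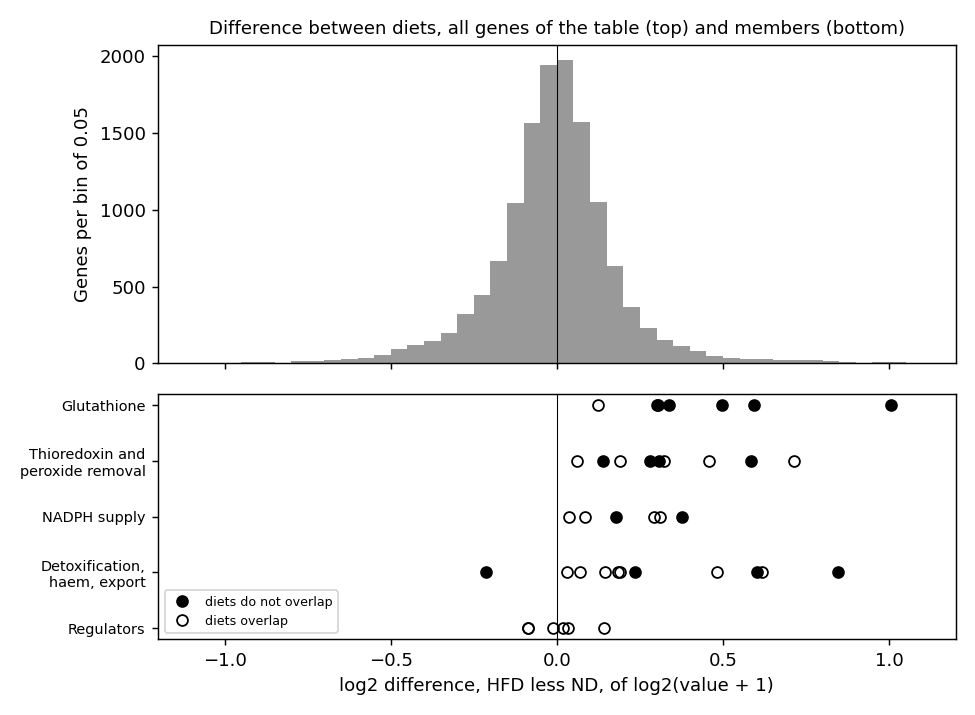
The top panel counts genes of the table by their log2 difference (HFD less ND, of log2(value + 1)), leaving out 10 genes below -1.2 and 26 above 1.2. The bottom panel places the 39 members on the same axis by role, filled where the diets do not overlap, and shows the regulators around 0 and the other roles mostly to the right of it.

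Libraries of the same diet differed along the same line as the diets did. ND replicate 1 was the lowest ND library for 26 of the 39 members (66.7%), against 28.7% of all genes, and ND replicate 3 the highest for 31 (79.5%), against 38.5% of all genes. HFD replicate 2 was the highest HFD library for 24 members (61.5%, against 27.8% of all genes). HFD replicate 1 was the lowest HFD library, also for 24 members (61.5%, against 36.3% of all genes). A library score, the mean over members of log2(value + 1) less each gene's mean, took the values -0.26, -0.16 and 0.017 for the ND libraries by replicate number. For HFD it was 0.065, 0.21 and 0.14. The highest ND score and the lowest HFD score were closer to each other than either was to the far end of its own diet.

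**Figure D3:**
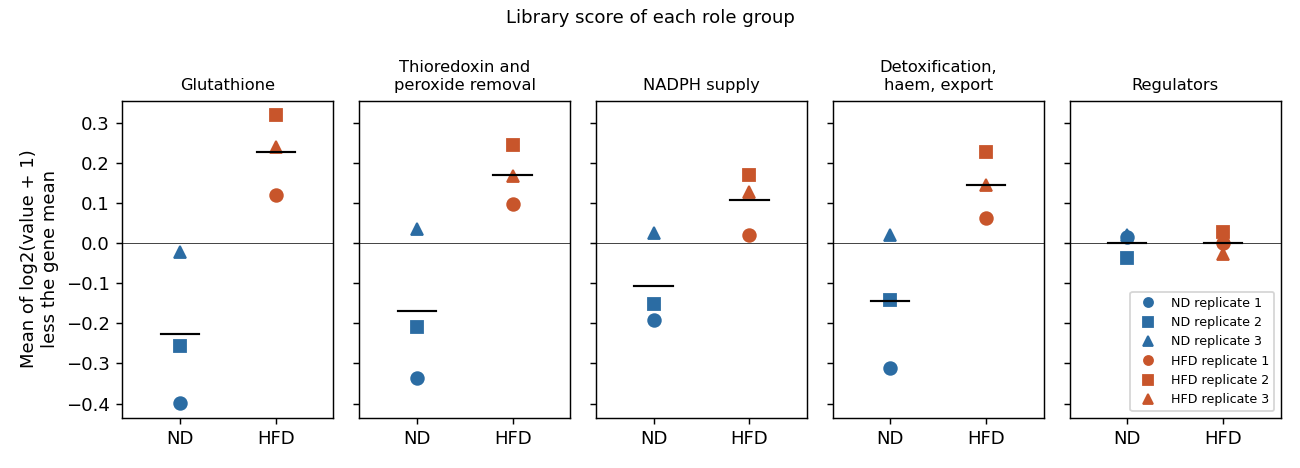
Each panel is a role and each point a library, at the mean over the role's members of log2(value + 1) less the gene mean, with a black bar at the mean of the 3 libraries of a diet. In the regulator panel the 6 libraries lie between -0.036 and 0.029, and in the glutathione panel between -0.40 and 0.32.

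Glutathione is a tripeptide of glutamate, cysteine and glycine that reduces peroxides and is conjugated to electrophiles. All 7 of its genes had a higher mean in HFD, with a median log2 difference of 0.34 (0.41 without ND replicate 3). In 5 they lay wholly above ND, against 7.44% of all genes, and in 7 once ND replicate 3 was left out, against 17.7%. The largest difference among all members was that of *Slc7a11*, the cystine importer of system xc-, which brings in the amino acid that limits glutathione synthesis. Normalized counts, always listed in the order of replicates 1 to 3, were 353, 433 and 557 for ND and 751, 997 and 926 for HFD. Every HFD library thus lay well above the highest ND library, ND replicate 3. The means were 447 ± 103 and 891 ± 127 (SD, n = 3), a 1.99-fold ratio and a log2 difference of 1.01 (SE 0.16, limma's moderated standard error, as for every SE here), which ranked 43 among the 13232 genes.

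Glutamate-cysteine ligase makes the first and rate-limiting step and has a catalytic and a modifier subunit. The catalytic subunit, *Gclc*, read 1163, 1269 and 1564 in ND and 1689, 1872 and 2058 in HFD (log2 difference 0.50, SE 0.11). The modifier, *Gclm*, which makes the enzyme more efficient, read 3039, 3824 and 4219 in ND and 4750, 6190 and 5735 in HFD (0.59, SE 0.13). The subunits moved apart little, and in both genes the ND library closest to HFD was replicate 3. Glutathione synthetase, *Gss*, which adds the glycine, differed less: 256, 227 and 266 in ND against 309, 338 and 280 in HFD (0.30, SE 0.11). Its highest ND value (266) and lowest HFD value (280) were close, where counting alone gives an error of 6.66% in its smallest library. The exons of *Gss* overlap antisense genes over 15.4% of their length, and since the use of strand in counting is not given in the sources used here, such reads cannot be told apart.

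Glutathione reductase, *Gsr*, returns oxidised glutathione to its reduced form with NADPH. It read 2026, 2286 and 2525 in ND and 2654, 3041 and 2916 in HFD (0.34, SE 0.088), with the diets just separate. Of the glutathione peroxidases, *Gpx1*, the abundant cytosolic enzyme, had means of 6374 ± 945 in ND and 7810 ± 496 in HFD (0.30, SE 0.10). ND replicate 3 (7398) lay above HFD replicate 1 (7338), so these overlapped, and without ND replicate 3 the difference was 0.41. *Gpx4*, which reduces lipid peroxides in membranes and guards against ferroptosis, differed least in the group (0.13, SE 0.092), at 0.21 without ND replicate 3 and 0.061 without ND replicate 1. Its level is uncertain, because 29.8% of its stretches of 75 bases, the length of a read, also occur in other annotated transcripts, among them *Gpx4-ps2*.

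Thioredoxin and the peroxiredoxins form the other thiol system, in which thioredoxin reductase passes electrons from NADPH to thioredoxin and on to peroxiredoxins that destroy peroxide. This group, taken with catalase and the superoxide dismutases, had 9 of 9 members with a higher mean in HFD, and a median log2 difference of 0.31 (0.39 without ND replicate 3). Of these 4 lay wholly above ND (7.44% of all genes), and 7 with ND replicate 3 left out (17.7% of all genes). *Prdx1*, the main cytosolic peroxiredoxin, had the highest level per kilobase of exon of all members. Its counts were 25627, 29044 and 44411 in ND and 43974, 57005 and 58268 in HFD. ND replicate 3 fell among the HFD libraries, just above HFD replicate 1, so the diets overlapped in spite of a log2 difference of 0.71 (SE 0.19). Without ND replicate 3 that difference was 0.95.

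Sulfiredoxin, *Srxn1*, repairs peroxiredoxins whose cysteine has been over-oxidised. It read 4862, 5193 and 6985 in ND and 7408, 8980 and 8938 in HFD, a log2 difference of 0.58 (SE 0.13) without overlap. Thioredoxin itself, *Txn1*, and its cytosolic reductase, *Txnrd1*, overlapped by ND replicate 3 alone: *Txn1* averaged 2267 ± 420 in ND and 2809 ± 149 in HFD (0.32, SE 0.11, and 0.47 without that library). The means of *Txnrd1* were 7758 ± 1710 and 10510 ± 810 (0.46, SE 0.13, and 0.63 without it). The peroxiredoxins were not alike. *Prdx6*, which also has phospholipase activity, read 1189, 1280 and 1538 in ND and 1560, 1704 and 1576 in HFD (0.28, SE 0.094), where ND replicate 3 and HFD replicate 1 nearly met. *Prdx5*, found in mitochondria and peroxisomes as well as the cytosol, ranged from 1693 to 2004 in ND and from 1676 to 2089 in HFD (0.060, SE 0.094, but 0.13 when ND replicate 3 and -0.0054 when HFD replicate 1 was left out), and 19.1% of its exon length overlaps *Trmt112* on the other strand.

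Catalase, *Cat*, breaks down hydrogen peroxide in peroxisomes. Its counts were 12428, 15589 and 14202 in ND and 16017, 18547 and 17520 in HFD (0.31, SE 0.093), and here ND replicate 2, not 3, was closest to HFD. *Sod1*, the cytosolic copper-zinc superoxide dismutase, separated the diets by a small step: 2012, 2004 and 2120 against 2177, 2235 and 2342 (0.14, SE 0.060). The mitochondrial manganese enzyme, *Sod2*, averaged 1706 ± 122 and 1950 ± 181 with overlap (0.19, SE 0.084). Of its 75-base stretches 16.2% also occur in other annotated transcripts.

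NADPH powers both thiol systems and comes mainly from the pentose phosphate pathway, malic enzyme and isocitrate dehydrogenase. The 6 members of this group had a higher mean in HFD, with a median log2 difference of 0.24 (0.27 without ND replicate 3). Wholly above ND were 2 of them (all genes 7.44%), or 4 when ND replicate 3 was left out (all genes 17.7%). With all 6 libraries the largest difference was that of *Taldo1*, the transaldolase of the non-oxidative branch, at 5209, 6280 and 6811 in ND and 7178, 8652 and 7874 in HFD (0.38, SE 0.10). Without ND replicate 3 it was 0.46, below that of *Me1* (0.54). *Idh1*, the cytosolic NADP-dependent isocitrate dehydrogenase, read 5567, 5866 and 5348 in ND and 6390, 6518 and 6067 in HFD (0.18, SE 0.062). It is among the members in which ND replicate 3 was the lowest ND library, away from HFD. On the oxidative branch the dehydrogenases were unlike: *Pgd*, 6-phosphogluconate dehydrogenase, averaged 12350 ± 1515 and 15081 ± 999 (0.29, SE 0.093), with ND replicate 3 just above HFD replicate 1 (0.39 without it). *G6pdx*, glucose-6-phosphate dehydrogenase, which commits glucose to the pathway, ranged from 6469 to 6599 in ND and from 6391 to 6919 in HFD (0.036, SE 0.059, and -0.0065 after quantile normalization). Its exons overlap *Ikbkg* on the other strand over 13.6% of their length.

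The transketolase *Tkt*, which recycles pentose phosphates, differed by 0.083 (SE 0.076) with overlap, and by 0.037 without ND replicate 2 or 0.15 without HFD replicate 1. Malic enzyme, *Me1*, was among the least abundant members, at 150, 144 and 236 in ND and 186, 218 and 240 in HFD. ND replicate 3 reached the level of the highest HFD library, and the log2 difference of 0.31 (SE 0.19) was 0.54 without it and 0.18 without ND replicate 2. In *Me1* 16.4% of the 75-base stretches are shared with *Gm7049* or *Gm7329*, which makes its count uncertain.

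The detoxification, haem breakdown and export group was mixed, with 10 of 11 members higher in mean and a median log2 difference of 0.19 (0.27 without ND replicate 3 and 0.32 with library weights). Among them 3 lay wholly above ND and 1 wholly below, where all genes had 7.44% and 7.07%. Leaving out ND replicate 3 made this 6 and 1, where all genes had 17.7% and 18.2%. *Nqo1*, the quinone reductase that is a standard readout of NRF2, was low but differed most: 103, 135 and 174 in ND and 220, 266 and 242 in HFD. The means were 137 ± 35.5 and 243 ± 23.1, a log2 difference of 0.85 (SE 0.18) that ranked 67 among all genes. Its smallest library held about 103 reads of it, where counting alone gives an error of 9.85%, less than the spread between ND libraries. *Hmox1*, haem oxygenase 1, which opens the haem ring and frees iron, carbon monoxide and biliverdin, read 9717, 11339 and 14256 in ND and 16188, 18687 and 18203 in HFD (0.60, SE 0.13). The step after it did not follow in the same measure. *Blvra* and *Blvrb*, the biliverdin reductases, had log2 differences of 0.030 (SE 0.076) and 0.18 (SE 0.096), and in both the diets overlapped. Without ND replicate 1 these were -0.027 and 0.086, and without ND replicate 3 they were 0.091 and 0.27. *Blvrb* (3752, 4406 and 4819 in ND, 5080, 5158 and 4466 in HFD) then lay wholly above ND.

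Of the carbonyl-reducing enzymes, *Akr1b8*, an aldo-keto reductase, averaged 1489 ± 378 in ND and 2272 ± 486 in HFD (0.62, SE 0.19), with overlap through ND replicate 3 (1881) and HFD replicate 1 (1714). Without ND replicate 3 the difference of *Akr1b8* was 0.80. *Cbr1*, carbonyl reductase 1, went the other way, at 445, 449 and 503 in ND and 401, 438 and 366 in HFD (-0.21, SE 0.094). It was the lowest of the 39 differences, though with library weights it was -0.10, level with *Bach1*. *Esd*, S-formylglutathione hydrolase of the glutathione-dependent formaldehyde route, averaged 5683 ± 887 and 7930 ± 1154 (0.48, SE 0.13), overlapping only by the narrow excess of ND replicate 3 (6668) over HFD replicate 1 (6631), and at 0.60 without it. *Abcc1*, the exporter of glutathione conjugates, separated the diets at 6081, 6244 and 6768 in ND and 7060, 7521 and 7904 in HFD (0.24, SE 0.069).

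With all 6 libraries unweighted, the conjugating enzymes among the members differed less than these. With library weights *Mgst1* (0.36) was above *Abcc1* (0.27), and without HFD replicate 3 it was again above (0.32 against 0.20). *Mgst1*, a microsomal glutathione transferase, had a log2 difference of 0.19 (SE 0.12) and *Gstm1*, a cytosolic one, of 0.15 (SE 0.078), both with overlap. Without ND replicate 3 *Gstm1* was at 0.081, and *Mgst1* ranged from 0.075 without ND replicate 1 to 0.32 without HFD replicate 3. *Ugdh*, which makes the UDP-glucuronate used for glucuronidation, differed by 0.068 (SE 0.081), and by 0.0063 without HFD replicate 3 or 0.14 without HFD replicate 1. Of the 75-base stretches of *Gstm1*, 11.7% recur in *Gstm2-ps1*, *Gstm3* or *Gm8834*, so its count is uncertain.

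The regulators lay close to 0: 3 had a higher and 3 a lower mean in HFD, all 6 overlapped, and the median log2 difference was 0.0028 (-0.010 after quantile normalization and -0.0096 when scaled to the column total). Without ND replicate 3 the median was -0.013, and 3 of the 6 no longer overlapped: *Sqstm1* (0.19) and *Mafg* (0.12) were wholly higher in HFD and *Bach1* (-0.13) wholly lower, while 35.9% of all genes did not overlap. *Nfe2l2* itself read 5982, 6226 and 5312 in ND and 5664, 5602 and 6074 in HFD (-0.013, SE 0.073, but -0.079 when ND replicate 3 and 0.035 when ND replicate 2 was left out). *Keap1* read 1264, 1135 and 1247 in ND and 1171, 1281 and 1238 in HFD (0.018, SE 0.070, but -0.030 when ND replicate 2 and 0.053 when HFD replicate 1 was left out). The libraries of the diets were interleaved in both genes. *Bach1* read 5827, 5560 and 5152 in ND and 5305, 5307 and 4957 in HFD (-0.086, SE 0.066, but -0.045 when ND replicate 1 and -0.054 when HFD replicate 3 was left out). Here ND replicate 3 lay on the HFD side of the other ND libraries.

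Small MAF proteins lack an activation domain and serve as the partners of both NRF2 and BACH1. *Mafg* averaged 3036 ± 322 in ND and 3102 ± 159 in HFD (0.035, SE 0.082). *Mafk* read 833, 761 and 834 in ND and 766, 767 and 751 in HFD (-0.086, SE 0.069), level with *Bach1*, with ND replicate 2 inside the HFD range. *Sqstm1*, which encodes the autophagy receptor p62, binds KEAP1 and is itself an NRF2 target. It had the highest difference of the group, at 12906, 13073 and 14351 in ND and 15052, 15438 and 14019 in HFD (0.14, SE 0.071), with overlap between ND replicate 3 and HFD replicate 3. *Sqstm1* shares 17.3% of its exon length with *Mrnip* on the other strand, and *Keap1* 10.9% with *Gm16754*.

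Per kilobase of exon the members spanned a wide range of levels. In ND, *Prdx1* stood at 10853 ± 3288 normalized counts per kilobase, *Hmox1* at 6722 ± 1314, *Cat* at 5386 ± 606, *Gpx1* at 4423 ± 656 and *Sqstm1* at 4006 ± 236 (SD, n = 3). The lowest were *Slc7a11* at 32.1 ± 7.38, *Gss* at 42.2 ± 3.47, *Me1* at 46.0 ± 13.4 and *Nqo1* at 88.3 ± 22.8. Large differences between diets occurred at both ends of this range, in *Prdx1* and *Hmox1* as in *Slc7a11* and *Nqo1*. In HFD, *Prdx1* was at 17444 ± 2600 and *Hmox1* at 10104 ± 757 per kilobase. In ND each neighbouring pair from *Prdx1* down to *Sqstm1* was closer than the sum of its SDs, whereas *Sqstm1* and the next gene, *Taldo1* at 2810 ± 376, were farther apart. At the low end *Slc7a11*, *Gss* and *Me1* were each within that sum of the next, and *Nqo1* lay beyond it from *Me1*.

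**Figure D4:**
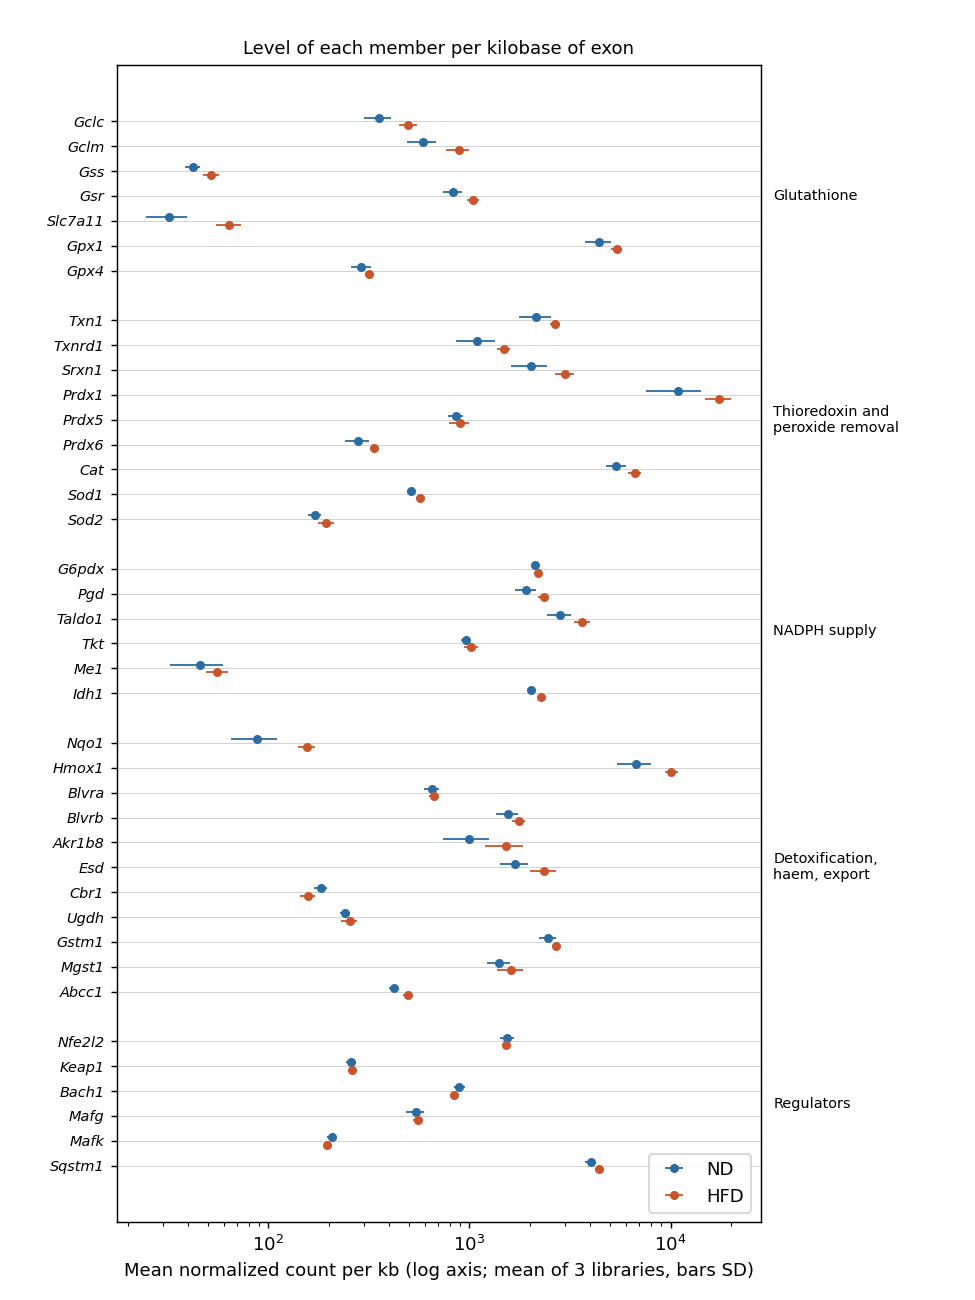
Mean normalized count per kilobase of exon on a log axis for each member, blue for ND and orange for HFD, with bars of 1 SD over 3 libraries. Members run from *Slc7a11*, *Gss* and *Me1* on the left to *Prdx1* and *Hmox1* on the right, and the diets are farthest apart in *Slc7a11* and *Nqo1*.

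NRF2 and a small MAF bind a motif with the core TGACNNNGC. RefSeq promoter windows (build GRCm38.p6, 250 bases before to 50 after the start, 300 bases in all) were matched by symbol for 34 members, and several members have more than 1 start. *Gclc*, *Gsr*, *Prdx6*, *Hmox1* and *Abcc1* are not in the promoter table. Both strands were searched. The letters TGACTCAGC, one form of the core, also hold the AP-1 motif TGACTCA. The core was found in 14 of 34 members (41.2%), against 14.0% of all 27025 genes with windows and 17.0% of those in the deposited table. Among further pathway genes of the table, a list described below, it was found in 8 of 69 (11.6%). By window the shares were 31.1% of 45 for the members and 12.4% of 32851 for all. By role it was found in 1 of 5 glutathione genes, 4 of 8 in the thioredoxin and peroxide group, 3 of 6 for NADPH supply, 3 of 9 for detoxification and 3 of 6 regulators.

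The sequences below show the core in 3 members with large differences between diets (*Gclm*, *Srxn1*, *Prdx1*), in *Me1*, and in 2 members with differences near 0 (*G6pdx* and *Nfe2l2*). Each is given 5′ to 3′ on the strand of its gene, with the core or its reverse complement in capitals and up to 26 bases on each side within the window. Positions count from the start, and negative ones lie before it. The *Gclm* stretch is chr3:122245397-122245457 (plus strand, core at -134), that of *Srxn1* chr2:152105526-152105573 (plus strand, at 29) and that of *Prdx1* chr4:116685440-116685500 (plus strand, at -133). The *Me1* stretch is chr9:86695886-86695946 (minus strand, at -6), that of *G6pdx* chrX:74428903-74428963 (minus strand, at -57) and that of *Nfe2l2* chr2:75704869-75704913 (minus strand, at -240).
Gclm: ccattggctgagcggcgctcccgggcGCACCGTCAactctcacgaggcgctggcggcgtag
Srxn1: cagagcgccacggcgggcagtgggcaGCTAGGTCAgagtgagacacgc
Prdx1: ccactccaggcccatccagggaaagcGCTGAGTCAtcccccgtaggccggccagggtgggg
Me1: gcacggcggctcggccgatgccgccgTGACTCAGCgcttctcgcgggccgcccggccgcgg
G6pdx: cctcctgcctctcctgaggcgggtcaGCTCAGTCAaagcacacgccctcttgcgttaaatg
Nfe2l2: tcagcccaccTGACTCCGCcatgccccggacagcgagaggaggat

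Among the 34 members with windows, those with and without the core had similar median differences between diets. The 14 members with the core in a window had a median log2 difference of 0.16 (range -0.086 to 0.71), with 3 wholly above ND. The 20 with windows but without it had a median of 0.19 (range -0.21 to 1.01), with 6 wholly above and 1 wholly below. Over all genes these shares were 7.44% above and 7.07% below. *Slc7a11* and *Nqo1*, the highest members, are among the latter. A match is only a run of letters, and its absence from 300 bases says nothing of sites farther away.

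Outside the members, 83 of 104 further genes of the pathway, listed by role, were in the table. Of these 57 had a higher mean in HFD, 21 were wholly above ND and 4 wholly below, with a median log2 difference of 0.062, so they lay between the members (0.24) and all genes (-0.0034). Without ND replicate 3, 31 were wholly above (17.7% of all genes) and 10 wholly below (18.2% of all genes), with a median of 0.080. Further detoxification genes had 14 of 33 wholly above and 2 wholly below (median 0.12), or 17 and 5 without ND replicate 3. By comparison 7.44% of all genes were wholly above and 7.07% wholly below. Further thioredoxin genes had 1 of 14 wholly above (median 0.019), and further NADPH genes 1 above and 1 below of 13 (median 0.089), counts near those shares. Without ND replicate 3 these were 2 above and 1 below of 14, and 4 above and 1 below of 13. Of the further glutathione genes 2 of 10 lay wholly above, and of the further regulators 3 of 13, with 1 below. Leaving out ND replicate 3 gave 3 above and 1 below for the former and 5 above and 2 below for the latter. The lowest difference of the list, picked out after its values were seen, was that of *Gpx3*, the secreted glutathione peroxidase, at 515, 507 and 320 in ND and 378, 266 and 252 in HFD (-0.57, SE 0.20). The diets overlapped through ND replicate 3, and without it the difference was -0.80.

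The largest difference in this list was that of *Gsta3*, an alpha-class glutathione transferase, at 62.9, 102 and 143 in ND and 212, 316 and 312 in HFD (a 2.73-fold ratio of means, rank 14 of all genes). All HFD libraries lay above ND replicate 3, the highest of ND. The others wholly above ND by at least 0.3 were *Gstm2* (0.96, SE 0.30), *Aox1*, aldehyde oxidase (0.61, SE 0.20), *Oplah*, which recycles oxoproline to glutamate (0.54, SE 0.19), and *Gstp1* (0.48, SE 0.13). So were *Slc48a1*, the transporter that brings haem out of the lysosome (0.48, SE 0.11), *Ugt1a6a* (0.47, SE 0.074), the small MAF *Maff* (0.34, SE 0.15) and *Osgin1* (0.32, SE 0.084). *Slc48a1* read 5897, 7044 and 8106 in ND and 8797, 10628 and 9686 in HFD. Those wholly below by at least 0.3 were *Gstm5*, a mu-class transferase (-0.41, SE 0.17), and *Aldh1l1*, a folate enzyme that yields NADPH (-0.33, SE 0.11). Counts of *Gstp1* and *Ugt1a6a* are uncertain, since 29.2% and 51.2% of their 75-base stretches recur in sister genes. *Gstm2* and *Aox1* were low, at 16.2 to 48.7 and 36.6 to 66.3. So were *Gstm5* (45.4 to 68.5), *Oplah* (60.6 to 102), *Maff* (67.9 to 103) and, in ND replicate 1, *Gsta3* (62.9). The exons of *Oplah*, *Gstm5* and *Aldh1l1* overlap other genes over 11.7%, 13.9% and 13.4% of their length.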

How the data were processed

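The submitters' processing notes name STAR, Partek and the genome build mm10, with no versions or roles; annotation, filters and scaling are not given in the sources used here. The authors deposited a normalized signal, which the values show to be estimated gene counts over a size factor per library. Between 57.0% and 58.4% of values from 5 to 1000 were whole multiples of 1 step per library (within 0.02 of a read), so whole reads could not be restored and count models were not used. The column total divided by that step gave the depth; counting errors cover counting only. The table holds 6 of the 12 libraries described, and the 6 at normal oxygen were not analysed here. Columns marked NC were taken as ND, and the number after the diet as the replicate.

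log2(value + 1) was compared between diets with limma 3.58.1 in R 4.3.3 (mean-variance trend, two-sided, Benjamini-Hochberg over all 13232 genes). This scale understates changes of low genes. The fit was tested on simulated data in which no library stood apart as ND replicate 3 does. That test therefore does not show how the fit performs on these libraries. P-values measure only the spread between these libraries, which may be technical. Each pair of libraries differed by 2.93 to 6.53 times counting noise. Exon length, shared 75-base stretches and overlapping exons came from GENCODE M21 (GRCm38), over all annotated exons of a gene. All 39 members are named; those without overlap, the highest and lowest 2 and *Nfe2l2*, *Keap1* and *Bach1* get every value. Of the further pathway genes those without overlap at a difference of at least 0.3 are named. Members, lists and rules were chosen with earlier results of these data known.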

Additional observations from a re-analysis of the deposited data

How the results depend on the processing

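The 0 genes called over the whole table were also 0 with a pseudocount of 0.1, with a minimum mean of 100 or a minimum of 10, after quantile normalization, when scaled to the column total, and without limma's trend (1144 to 1408 at an unadjusted p). Weights for each library gave 1133, and leaving out 1 library gave 0 to 233. A term for the replicate number (replicate block) gave 31. Across genes the deviations of libraries with the same number had correlations of -0.01, -0.04 and 0. Such values over the whole table do not settle whether libraries with the same number were paired, and the labels do not say. The 15 members without overlap (14.5% of all genes, either direction) became 15 to 28 without 1 library, when 18.8% to 35.9% of all genes did not overlap, and 15 to 17 under the other scalings and filters (14.1% to 14.5%). Library weights moved the members' median from 0.24 to 0.36 and that of the detoxification group from 0.19 to 0.32; the cause was not tested. The difference changed sign under at least 1 alternative in 6 members, *Prdx5*, *G6pdx*, *Blvra*, *Nfe2l2*, *Keap1* and *Mafg*, which are all near 0. Depth limits *Nqo1* most among members (9.85% counting error in its smallest library) and *Prdx1* least (0.624%).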

Other observations

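Several members have a counterpart enzyme in another compartment or of constitutive expression, and their log2 ratio within a library hardly depends on how libraries were scaled. These pairs were put together after the values of the members were seen, and no test was made. The ratio of *Prdx1* to *Prdx2*, another cytosolic peroxiredoxin, was, by replicate number, 3.62, 3.70 and 4.27 for ND and 4.29, 4.60 and 4.75 for HFD. It did not overlap, although *Prdx1* alone did, and ND replicate 3 lay just under HFD replicate 1. Against *Prdx3* of mitochondria and *Prdx4* of the secretory pathway the ratio of *Prdx1* was also wholly higher in HFD, by 0.67 and 0.81 on average.

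The ratio of cytosolic to mitochondrial thioredoxin (*Txn1* to *Txn2*) averaged 0.74 ± 0.19 in ND and 1.11 ± 0.096 in HFD (SD, n = 3), and that of their reductases (*Txnrd1* to *Txnrd2*) 4.69 ± 0.22 and 5.21 ± 0.17, both without overlap. *Hmox1* against the constitutive haem oxygenase *Hmox2* was higher by 0.63, and *Nqo1* against *Nqo2* by 0.87, again without overlap. The exons of *Hmox2*, *Nqo2* and *Prdx2* overlap antisense genes over 40.2%, 18.9% and 11.5% of their length, so the counts they give to these ratios are uncertain. The ratio overlapped between diets for *Idh1* to *Idh2*, *Me1* to *Me2*, *Sod1* to *Sod2* and *Akr1b8* to *Akr1b3*. *Idh1* and *Sod1* alone were wholly higher in HFD, so here the ratio removed the separation. That of *Sod1* to *Sod2* was lower in HFD on average (-0.053). How often ratios of other gene pairs overlap was not computed. The ratio of *Gclm* to *Gclc*, subunits of one enzyme, also overlapped, at 1.47 ± 0.11 in ND and 1.56 ± 0.14 in HFD.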
